A study of Mus musculus with 54 samples.

Results

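A set of 9 secreted signals of muscle precursor cells, the cytokines Il6 and Lif, the chemokines Ccl2, Ccl7, Cxcl1, Cxcl5, Cxcl10 and Cxcl12, and the growth factor Csf1, were followed through the first days of myogenic differentiation in cells with and without the nuclear membrane protein emerin. They were chosen by name as known products of myogenic progenitors, at a time when earlier results of these data were known. They were found by their NCBI gene numbers, and these 9 genes were among 19653 genes listed in any of 27 tables of expression values. All 9 were listed in every table, as were 15134 genes in total.

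The cells were H2K mouse myogenic progenitors, a conditionally immortalized line that grows in the presence of interferon gamma. RNA sequencing covered 6 lines: wildtype, EMD-/y cells, in which the X-linked emerin gene is deleted, and EMD-/y cells transduced with lentivirus for wildtype emerin (+EMD) or for an emerin that carries S54F, Δ95–99 or Q133H, changes that cause Emery-Dreifuss muscular dystrophy. The 4 transduced lines therefore all lack the endogenous gene, and they were also selected with puromycin, at doses that were not the same for all lines. The emerin mutant lines were seeded at a higher cell number than wildtype and EMD-/y, and the study's methods do not name +EMD there. Neither selection nor seeding can be told apart from the transgene, and no vector-only line is among the 6. The study's blots gave more emerin protein in Q133H than in wildtype, and levels similar to wildtype in the other transduced lines. In Q133H the amount of emerin cannot be told apart from the mutation. Each line was sampled at 0, 24 and 48 hours of differentiation (days 0, 1 and 2). Day 0 cells had spent the night in growth medium with serum and interferon gamma, and were then moved to a low-serum medium without interferon gamma. By the study's methods, differentiation also took place at a higher temperature and lower CO2 than growth. With 3 labelled replicates per group there were 54 samples in 18 groups, but each table gives 1 value per group, so no spread between replicates and no test can be given. Of the tables, 15 compare a line with wildtype on the same day and 12 compare consecutive days of 1 line.

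Values are normalized counts, with sums over the genes of a table of 16719491 to 21128040. After normalization these sums do not measure sequencing depth, and no other measure of it was available. A ratio was taken only between the 2 groups of 1 table, for genes with at least 10 in the higher group (13118 to 13593 genes per table). A ratio of at least 2-fold is called higher or lower below. The 95% interval printed with a log2 ratio covers counting error alone, from an exact binomial split of 3 times each value, and is approximate because the values are not raw counts. A group's value differs slightly between tables and lies closer to its partner group where values are low, so that ratios of low genes may be understated. Levels are given below as the median over the tables that hold the group. For members other than Il6, the largest ratio between 2 tables' values for the same group ran from 1.14 (Ccl7) to 2.05 (Cxcl10). The targeted gene, Emd, was at 987 to 1962 in wildtype and at no more than 3.52 in the other 5 lines, +EMD included, so it checks the deletion but not the transgenes.

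Cytokines and chemokines are small secreted proteins that act on nearby cells through surface receptors. LIF and IL-6 signal through a shared receptor subunit, gp130 (Il6st), to the Jak and Stat proteins. Chemokines draw leukocytes and other cells along a gradient, and CSF-1 keeps macrophages alive. In regenerating muscle such signals pass between muscle precursors and the macrophages and neutrophils that enter the tissue, and several of them also act on the precursors themselves.

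Promoter sequence is shown for the 4 members that have a RefSeq promoter entry (GRCm38.p6) and passed the minimum in all 27 comparisons, because their values carry most of the results. The letters are the 250 bases before the transcription start, read 5′ to 3′ on the gene's strand, with matches to any of 6 searched motifs in capitals.
Cxcl10 (chr5:92348890-92349139, - strand): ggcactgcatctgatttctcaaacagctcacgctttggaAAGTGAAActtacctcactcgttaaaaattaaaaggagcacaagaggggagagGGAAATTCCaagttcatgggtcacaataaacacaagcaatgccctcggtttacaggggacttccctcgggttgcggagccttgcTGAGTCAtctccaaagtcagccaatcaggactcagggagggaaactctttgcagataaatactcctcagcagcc
Lif (chr11:4257318-4257567, + strand): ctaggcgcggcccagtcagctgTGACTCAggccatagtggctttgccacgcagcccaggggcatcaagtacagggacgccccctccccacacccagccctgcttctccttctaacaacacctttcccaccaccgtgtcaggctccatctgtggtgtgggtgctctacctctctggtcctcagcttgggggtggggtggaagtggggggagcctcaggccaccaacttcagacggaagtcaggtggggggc
Csf1 (chr3:107760470-107760719, - strand): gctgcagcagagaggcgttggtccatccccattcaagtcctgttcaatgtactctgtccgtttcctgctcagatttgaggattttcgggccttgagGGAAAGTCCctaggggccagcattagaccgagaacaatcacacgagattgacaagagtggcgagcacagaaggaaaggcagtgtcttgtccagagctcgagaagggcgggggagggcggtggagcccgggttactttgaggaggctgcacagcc
Cxcl12 (chr6:117168285-117168534, + strand): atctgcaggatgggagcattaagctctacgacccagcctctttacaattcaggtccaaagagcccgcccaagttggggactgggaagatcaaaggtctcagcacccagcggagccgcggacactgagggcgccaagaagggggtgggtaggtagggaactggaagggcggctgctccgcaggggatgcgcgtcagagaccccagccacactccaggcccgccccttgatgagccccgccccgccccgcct
The motifs, searched on both strands, were AANNGAAA (the core bound by interferon regulatory factors), TTCNNNGAA (gamma-activated site), GGNNTTTCC (NF-kB), TGACTCA (AP-1), TTNNGCAA (C/EBP) and TATAAA (the element bound by TBP). Among 32851 RefSeq promoters of the same length these letters were found in 21.3%, 7.02%, 4.93%, 4.46%, 9.56% and 12.4%, respectively. In Cxcl10 the capitals mark AAGTGAAA from 211 to 204 bases before the start, an NF-kB match from 158 to 150 bases before it and an AP-1 match from 74 to 68. In Lif they mark an AP-1 match from 228 to 222 bases before the start and in Csf1 an NF-kB match from 154 to 146. The Cxcl12 window holds no match. Il6 and Cxcl1 also had entries. Their windows hold 1 and 2 NF-kB matches, and Il6 holds 1 C/EBP and 1 AP-1 match as well. Ccl2, Ccl7 and Cxcl5 had no entry. A match is a match of letters and was not tested as a binding site.

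Levels of the members spanned a wide range. Per kilobase of transcript, the median over the 18 groups was highest for Csf1 (2110 normalized counts per kilobase), followed by Cxcl12 (306), Cxcl10 (134), Ccl2 (85.2), Ccl7 (51.0), Lif (41.9), Cxcl1 (11.2), Cxcl5 (7.7) and Il6 (2.4). The 6 members Lif, Ccl2, Ccl7, Cxcl10, Cxcl12 and Csf1 were at 10 or more in all 18 groups. Cxcl1 and Cxcl5 reached 10 in 11 groups each and Il6 in none by its median. Between its lowest and its highest group Cxcl10 differed 194-fold, Cxcl5 38.4-fold, Ccl7 30.9-fold, Csf1 19.7-fold and Cxcl12 18.2-fold, whereas Lif differed 9.92-fold and Ccl2 6.23-fold.

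**Figure D1:**
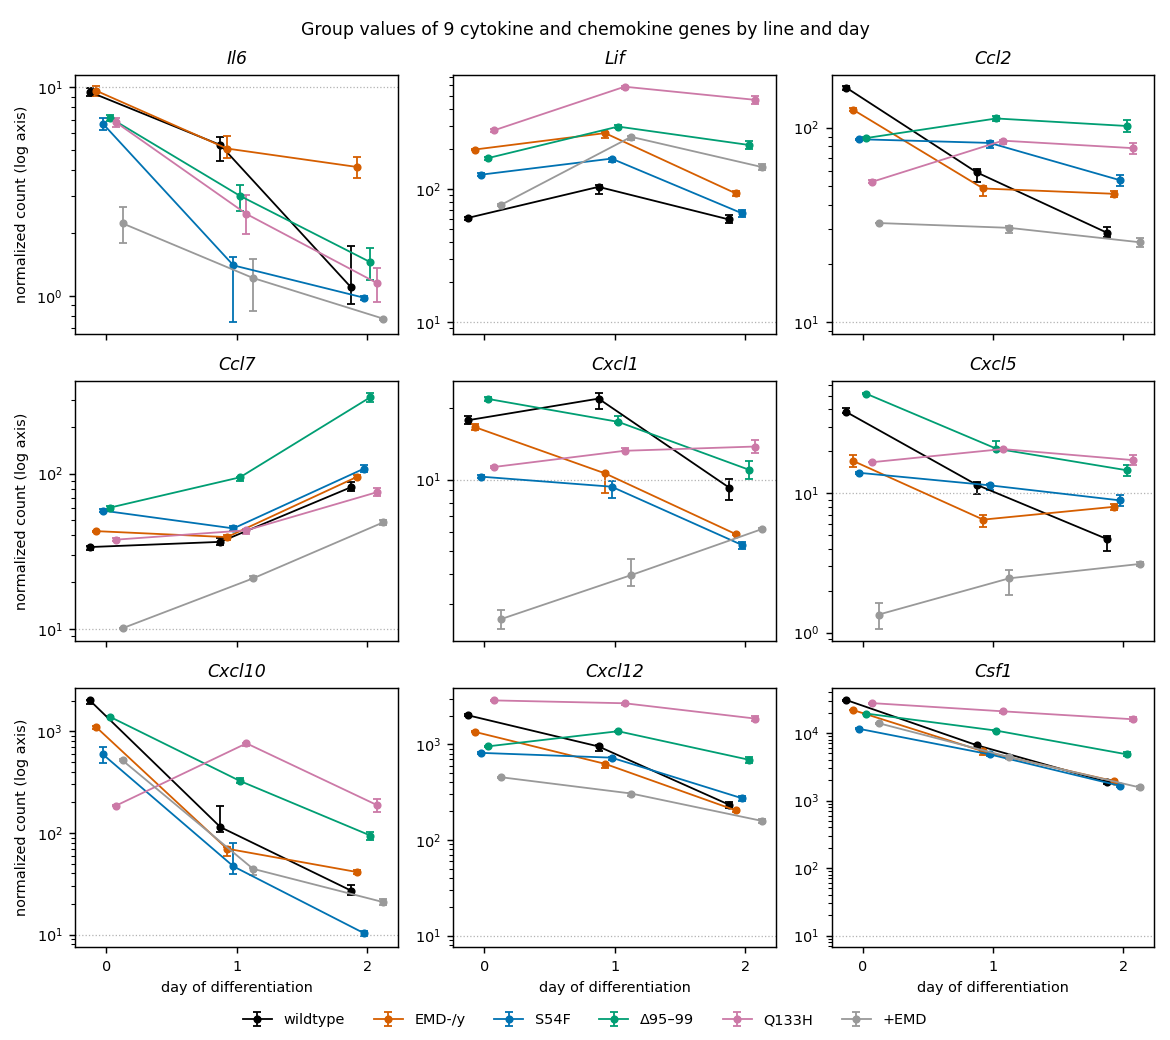
Normalized count of each member (log axis) against day of differentiation, with 1 coloured line per cell line. Points are the median over the tables that hold the group, bars run from the lowest to the highest table, and the dotted line marks 10. Csf1 is highest at 30861 in wildtype on day 0, the Q133H line stays above the other lines in Lif, and its Cxcl10 is higher on day 1 than on day 0 while every other line is lower on day 1.

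Against wildtype, the members were counted line by line beside the share of all genes tested that passed the same 2-fold limit. For EMD-/y on day 0, 1 of 9 members was higher, against 5.18% of all genes, and 1 was lower, against 3.94%. On day 1 these were 1 of 8 (4.79%) and 0 (2.89%), and on day 2 0 of 6 (5.02%) and 0 (2.96%). In S54F on day 0, 1 of 8 members was higher (background 6%) and 4 were lower (6.32%). On day 1 none of 8 was higher (5.84%) and 2 were lower (6.69%), and on day 2 none of 6 was higher (6.1%) and 1 was lower (5.03%).

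In Δ95–99 and Q133H more members were 2-fold higher than wildtype on each later day. In Δ95–99 on day 0, 1 of 8 members was higher (background 5.82%) and 1 was lower (6.92%). On day 1, 3 of 8 were higher (9.05%) and 0 were lower (12.3%), and on day 2, 7 of 8 were higher (13.4%) and 0 were lower (9.1%). In Q133H on day 0, 1 of 8 was higher (6.45%) and 3 were lower (8.67%). On day 1, 4 of 8 were higher (9.7%) and 0 were lower (14.9%), and on day 2, 6 of 8 were higher (18.2%) and 0 were lower (15.6%). The members' median log2 ratio on day 2 was 1.51 in Δ95–99 and 2.07 in Q133H, while the median over all genes tested lay between -0.016 and 0.019 in every table.

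In +EMD fewer members were 2-fold lower than wildtype on each later day, while most of those tested stayed below it. On day 0, none of 8 members was higher (background 6.3%) and 7 were lower (11%), with a median log2 ratio of -2.04. On day 1, 1 of 8 was higher (9.2%) and 4 were lower (10.9%), and on day 2, 1 of 6 was higher (10.9%) and 0 were lower (7.81%). The day 2 ratios of Ccl7 (-0.79), Cxcl12 (-0.60) and Csf1 (-0.32) were under 2-fold, with intervals below 0. Over the 15 line comparisons 115 of 135 values passed the minimum, and 27 were higher and 23 lower. Over all genes, 8.15% of the values tested in these 15 comparisons were higher and 8.36% lower. These comparisons share the wildtype group of their day, so they are not independent of each other.

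**Figure D2:**
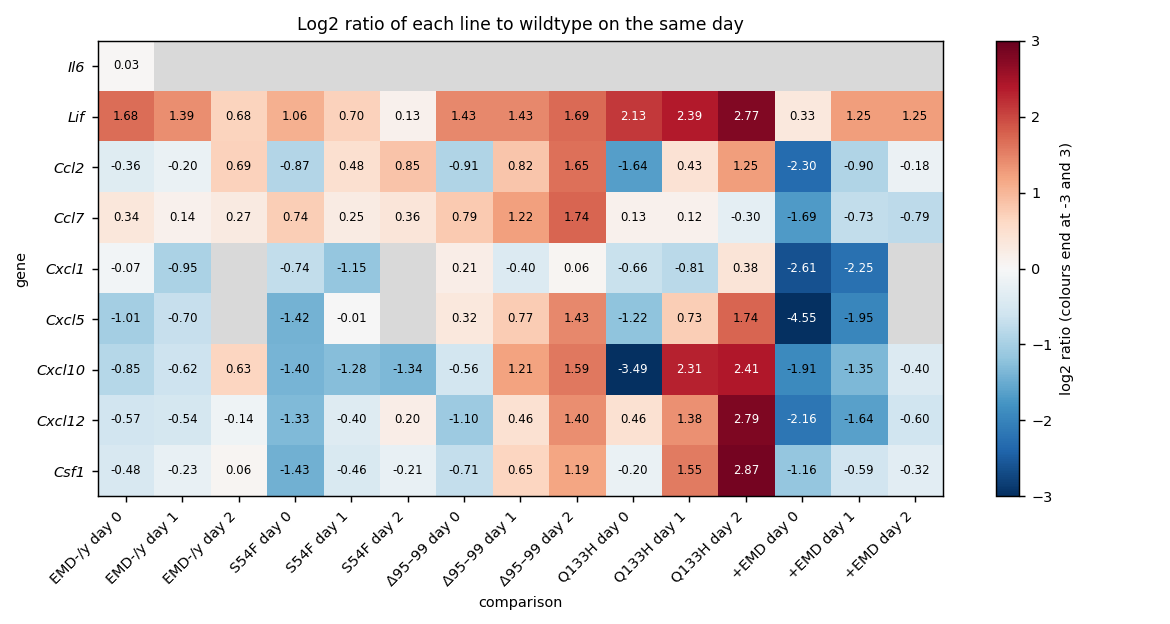
Log2 ratio of each line to wildtype on the same day, for 9 members (rows) in 15 comparisons (columns), with colours that end at -3 and 3. Grey cells did not reach 10 in either group. Lif is above 0 in all 15 columns, the +EMD day 0 column is below -1 in 7 of its 8 filled cells, and Csf1 and Cxcl12 reach 2.87 and 2.79 in Q133H on day 2.

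Between days, lower calls outnumbered higher ones, though most values were under 2-fold. From day 0 to day 1 in wildtype, none of 8 members was higher (background 12.7%) and 5 were lower (10.6%). The same step in EMD-/y also gave 0 of 8 higher (12.2%) and 5 lower (9.67%), and in S54F 0 of 8 higher (9.62%) and 2 lower (7.49%). In Δ95–99 it gave 0 of 8 higher (7.53%) and 2 lower (6.96%), in Q133H 2 of 8 higher (5.95%) and 0 lower (6.6%), and in +EMD 2 of 6 higher (10.7%) and 2 lower (7.17%). Q133H was thus the line in which no member was 2-fold lower on day 1.

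From day 1 to day 2, wildtype had 1 of 7 members higher (background 8.14%) and 3 lower (12.2%). EMD-/y had 1 of 6 higher (7.81%) and 3 lower (11.4%), and S54F had 1 of 7 higher (9.54%) and 4 lower (11.4%). Δ95–99 had 1 of 8 higher (9.17%) and 2 lower (5.49%), Q133H had 0 of 8 higher (6.55%) and 1 lower (4.54%), and +EMD had 1 of 6 higher (11.2%) and 1 lower (9.85%). The member that was higher in these 5 lines was Ccl7 each time. Over all 12 day comparisons 88 of 108 values passed the minimum, and 9 were higher and 30 lower, and over all genes 9.28% of the values tested were higher and 8.63% lower.

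**Figure D3:**
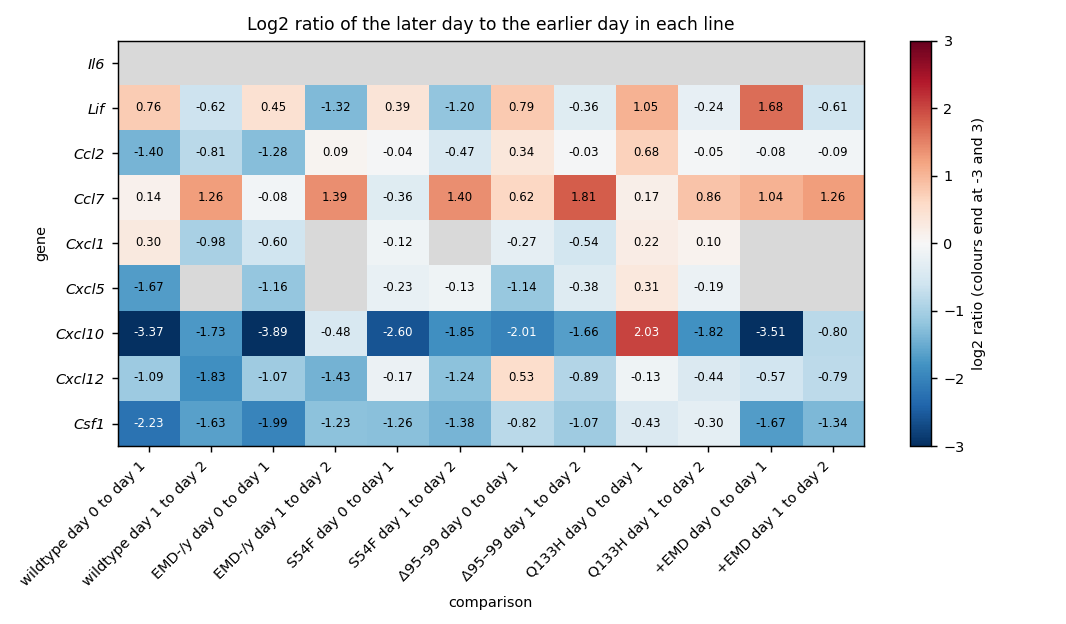
Log2 ratio of the later to the earlier day within each line, for 9 members (rows) in 12 comparisons (columns), with colours that end at -3 and 3 and grey cells that did not reach 10. Csf1 is below 0 in all 12 columns, Ccl7 is above 0 in 10 of 12, and Cxcl10 is above 0 in the column for Q133H from day 0 to day 1 alone (2.03).

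Lif (GeneID 16878, chr11:4257568-4272514), leukemia inhibitory factor, known to stimulate myoblast proliferation, was the member that stood above wildtype most often. It was at 60.8 on day 0, 104 on day 1 and 59.1 on day 2 in wildtype, and at 198, 263 and 93.0 in EMD-/y. S54F held 128, 169 and 65.8, Δ95–99 171, 295 and 215, and +EMD 75.9, 247 and 147. Q133H was the highest line on all 3 days, at 276, 587 and 468. All 6 lines peaked on day 1. Against wildtype Lif was above 0 on the log2 scale in 15 of 15 comparisons and at least 2-fold higher in 11, with the whole counting interval past 2-fold in 9. In Q133H the log2 ratio was 2.13 on day 0 (interval 1.89 to 2.37), 2.39 on day 1 (2.21 to 2.56) and 2.77 on day 2 (2.55 to 2.99). The 4 comparisons under 2-fold were EMD-/y on day 2 (log2 0.68), S54F on day 1 (0.70) and day 2 (0.13), and +EMD on day 0 (0.33). Only the S54F day 2 interval spanned 0, from -0.17 to 0.44. Within lines, Lif was 2-fold higher from day 0 to day 1 in +EMD (log2 1.68) and Q133H (1.05), and 2-fold lower from day 1 to day 2 in EMD-/y (-1.32) and S54F (-1.20).

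Il6 (GeneID 16193, chr5:30013114-30019975), the cytokine that contracting and regenerating muscle releases, was the lowest member by its median per kilobase. Its highest group values were 9.61 in EMD-/y and 9.48 in wildtype, both on day 0. Day 0 was also the highest day in the other lines, at 7.15 in Δ95–99, 6.78 in Q133H, 6.68 in S54F and 2.23 in +EMD. By day 2 it was at 1.10 in wildtype, 4.14 in EMD-/y and between 0.777 and 1.45 in the transduced lines. Only EMD-/y against wildtype on day 0 passed the minimum, at 10.1 and 9.86 (log2 0.03, interval -0.75 to 0.82). Ratios of Il6 in the other 26 comparisons were not called, since neither group reached 10. The values furthest apart on day 0 were 2.65 in +EMD and 9.03 in wildtype.

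Of 15 receptors of the members, 5 passed the minimum in all comparisons, and 10 of 80 line values were higher (12.5%, against 8.15% over all genes) and 6 lower (7.5%, against 8.36%). Those of Lif and Il6 were present throughout. Il6st, the shared gp130 subunit, ranged from 2150 to 4790 over the 18 groups, Lifr from 331 to 903 and Il6ra from 34.9 to 250. Il6st had a median log2 ratio of -0.42 over the 15 line comparisons, with 1 value 2-fold lower, in Q133H on day 1 (-1.18). Of the 16 Jak, Stat and Socs genes that stand downstream, all passed the minimum in every comparison, and 9 of 240 line values were higher (3.75%) and 15 lower (6.25%), both shares below those over all genes (8.15% and 8.36%). The genes named next have the largest medians in this list. Jak3, the kinase of the common gamma chain receptors, was 2-fold higher in 7 of 15 line comparisons, up to a log2 ratio of 3.36 in Q133H on day 2. Stat2, which carries interferon signals, was 2-fold lower in 4 of 15, down to -1.93 in Q133H on day 0, and Socs2 in 4 of 15, down to -1.86 in Q133H on day 1. Between days the largest medians belonged to Jak2 (-0.64), Socs3 (-0.59) and Socs1 (-0.58), the latter 2 being feedback inhibitors of Jak kinases. Socs1 was 2-fold lower from day 0 to day 1 in 5 lines, down to -3.24 in wildtype, and was at -0.17 in Q133H.

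Ccl2 (GeneID 20296, chr11:82035577-82037452), the main attractant of monocytes, went from highest in wildtype to near the lowest there over the 3 days. It was at 160 on day 0, 58.9 on day 1 and 28.8 on day 2 in wildtype, and at 124, 48.7 and 45.7 in EMD-/y. The other lines varied less over time. S54F was at 87.2, 83.5 and 53.7, Δ95–99 at 88.3, 111 and 102, Q133H at 52.7, 85.7 and 78.4, and +EMD at 32.3, 30.6 and 25.8. On day 0 all 5 lines lay below wildtype, with Q133H (log2 -1.64, interval -1.91 to -1.38) and +EMD (-2.30, interval -2.63 to -1.98) past 2-fold. On day 2 the ratios were above 0 in 4 lines and past 2-fold in Δ95–99 (1.65, interval 1.31 to 2.01) and Q133H (1.25, interval 0.89 to 1.62). From day 0 to day 1 Ccl2 was 2-fold lower in wildtype (-1.40) and EMD-/y (-1.28), while the other 4 lines lay between -0.08 and 0.68.

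Ccl7 (GeneID 20306, chr11:82045712-82047525), a second monocyte attractant whose gene lies beside Ccl2, followed another course. In wildtype it was at 33.6 on day 0, 36.3 on day 1 and 81.6 on day 2, in EMD-/y at 42.6, 39.0 and 95.5, in S54F at 57.8, 44.3 and 108, and in Q133H at 37.5, 43.1 and 75.9. Day 2 was the highest day in all 6 lines. Δ95–99 held more on every day, at 60.3, 94.7 and 311, and +EMD less, at 10.1, 21.1 and 48.6. The log2 ratio of Δ95–99 to wildtype was 0.79 on day 0, 1.22 on day 1 and 1.74 on day 2 (interval 1.54 to 1.95), and that of +EMD was -1.69, -0.73 and -0.79. From day 1 to day 2 the log2 ratio was highest in Δ95–99 (1.81), and it was 1.26 in wildtype and in +EMD, 1.39 in EMD-/y and 1.40 in S54F, while Q133H reached 0.86. In wildtype the pair thus ran in opposite directions over the 3 days, with Ccl2 lower and Ccl7 higher on day 2 than on day 0. The receptors of CCL2 and CCL7 on leukocytes, Ccr1, Ccr2 and Ccr3, did not reach 10 in any group.

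Cxcl1 (GeneID 14825, chr5:90891245-90893121) and Cxcl5 (GeneID 20311, chr5:90759298-90761625), neutrophil attractants that act on CXCR2, were low. Cxcl1 ran from 2.58 in +EMD on day 0 to 21.9 in wildtype on day 1. On day 0 it was at 21.9 in Δ95–99, 17.8 in wildtype, 16.7 in EMD-/y, 11.3 in Q133H and 10.3 in S54F. No line comparison had it 2-fold higher, and 3 had it lower, +EMD on day 0 (log2 -2.61, interval -3.86 to -1.55) and day 1 (-2.25, interval -3.20 to -1.40) and S54F on day 1 (-1.15, interval -1.83 to -0.51). None of its 8 day values reached 2-fold, and 7 of those 8 intervals spanned 0.

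Cxcl5 was at 38.2, 11.5 and 4.69 on days 0, 1 and 2 in wildtype and at 51.8, 20.9 and 14.6 in Δ95–99. Q133H stayed between 16.7 and 20.7, and +EMD never passed 3.11. The lowest ratio of any member was that of Cxcl5 in +EMD on day 0, 1.63 against 38.3 in wildtype (log2 -4.55, interval -6.22 to -3.27). It was also 2-fold lower on day 0 in EMD-/y (-1.01), S54F (-1.42) and Q133H (-1.22), and on day 1 in +EMD (-1.95), though these 4 intervals reached inside 2-fold, to -0.54, -0.90, -0.73 and -0.83. On day 2 it was 2-fold higher in Δ95–99 (1.43) and Q133H (1.74), and these intervals began below 1 as well, at 0.54 and 0.86. With a pseudocount of 1 the +EMD day 0 ratio was smaller in size by 0.65. The receptors Cxcr1 and Cxcr2 stayed below 10 in all groups.

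Cxcl10 (GeneID 15945, chr5:92346638-92348889), an attractant of activated T cells that interferon gamma induces, had the widest range of the members. In wildtype it was at 2010 on day 0, 114 on day 1 and 27.2 on day 2. EMD-/y (1093, 70.1 and 41.2), S54F (592, 46.9 and 10.3), Δ95–99 (1396, 325 and 94.3) and +EMD (518, 44.4 and 20.9) were also highest on day 0 and lowest on day 2. Q133H was the exception, at 186, 762 and 188. From day 0 to day 1 the log2 ratio was -3.89 in EMD-/y, -3.51 in +EMD, -3.37 in wildtype, -2.60 in S54F and -2.01 in Δ95–99, and in Q133H it was 2.03 (interval 1.90 to 2.17). Against wildtype, Q133H was therefore lower on day 0 (-3.49, interval -3.62 to -3.37) and higher on day 1 (2.31, interval 2.16 to 2.47) and day 2 (2.41, interval 2.09 to 2.75). Δ95–99 was at -0.56, 1.21 and 1.59, S54F at -1.40, -1.28 and -1.34, and +EMD at -1.91, -1.35 and -0.40. The wildtype day 1 value was 186 in the table that pairs it with day 0 and 103 to 146 in the other 6, and in S54F the day 1 value was 80.4 when paired with day 0 and as low as 39.2 elsewhere, while day 0 was at 486 in that table and 698 in the other. The ratios of both lines from day 0 to day 1 may therefore be understated, and the order of the lines at this step is not fixed by these tables.

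The other genes known to respond to interferon gamma were set beside Cxcl10. From day 0 to day 1, of 24 such genes 17 were 2-fold lower in EMD-/y (median log2 ratio -1.42, background 9.67%) and 16 in wildtype (-1.45, 10.6%). In +EMD 15 were lower (-1.20, 7.17%), in S54F 11 (-0.95, 7.49%) and in Δ95–99 11 (-0.83, 6.96%). In Q133H none was lower (6.6%) and 8 were higher (5.95%), with a median of 0.81. Against wildtype on day 0, 17 of the 24 were lower in Q133H (median -1.65, background 8.67%) and 8 in +EMD (11%). In each of the other lines 1 or 2 were lower, against 3.94% to 6.92% of all genes. Gbp5, a guanylate-binding protein, was lower in 13 of 15 line comparisons, down to -5.59 in Q133H on day 0, Irf7 in 7 of 15 and the GTPase Igtp in 4 of 15. Between days the largest medians were those of Irf8 (-1.61), Gbp5 (-1.47) and Gbp3 (-1.23). The ratio of Cxcl10 had the sign of the list's median in 26 of 27 comparisons, EMD-/y on day 2 being the exception. It was larger in size than that median in 26 of 27. A median of 24 genes varies less than a single gene, so this count does not rank Cxcl10 among them. The comparisons also share groups. Day 0 medium held interferon gamma and later medium did not, in every line. Temperature, CO2 and serum changed at the same step, and the part of each of these changes in the values was not tested.

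**Figure D4:**
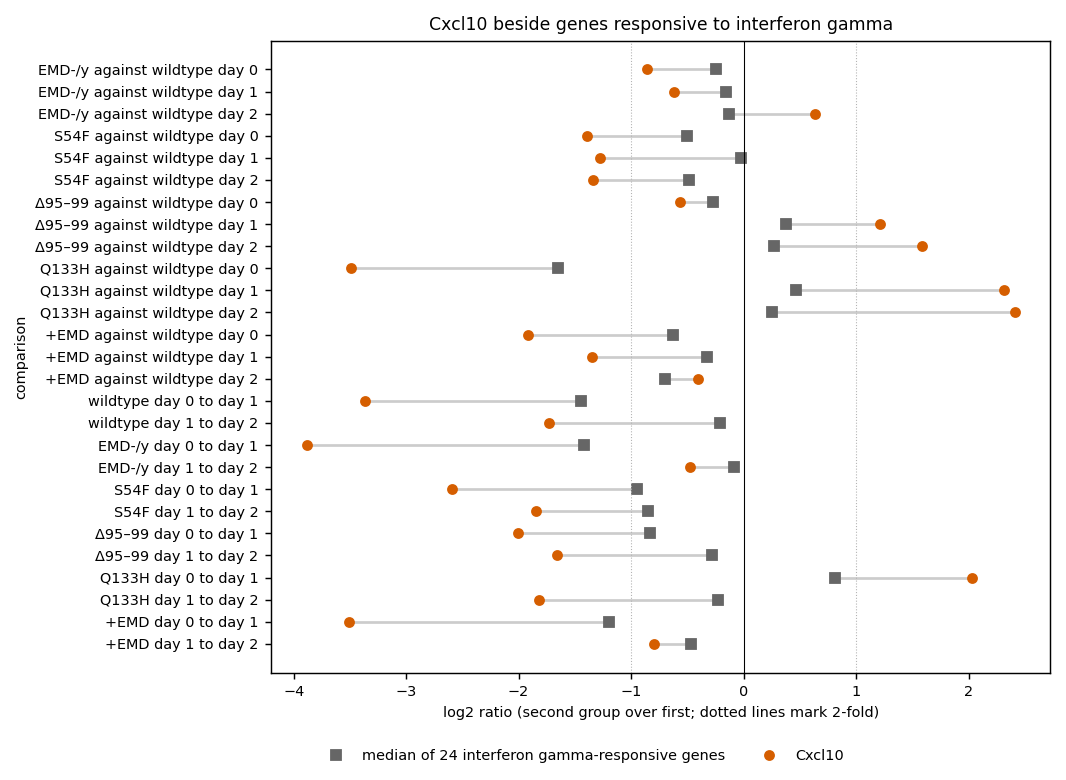
Log2 ratio of Cxcl10 (orange points) and the median log2 ratio of 24 interferon gamma-responsive genes (grey squares) in each of the 27 comparisons, with dotted lines at 2-fold. Both lie to the left in 5 lines from day 0 to day 1 and to the right in Q133H, where they are at 2.03 and 0.81.

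Cxcl9, a close relative of Cxcl10 that binds the same receptor, CXCR3, did not share its later values in Q133H. It was 2-fold lower in all 15 line comparisons, from -1.16 in EMD-/y on day 1 to -6.65 in Q133H on day 0. In Q133H it was at 14.3 on day 0 against 1437 in wildtype, and at 11.6 on day 1 against 36.2. Cxcr3 itself was at no more than 0.633 in any group.

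Cxcl12 (GeneID 20315, chr6:117168535-117181368), which guides migrating muscle precursors through CXCR4, was the second most abundant member by its median per kilobase. It was at 2020 on day 0, 953 on day 1 and 234 on day 2 in wildtype, at 1357, 627 and 205 in EMD-/y, and at 817, 728 and 274 in S54F. Δ95–99 held 955, 1376 and 693, and +EMD the least on every day, 455, 307 and 159. Q133H held the most on every day, 2892, 2700 and 1868. The log2 ratio of Q133H to wildtype was 0.46 on day 0 (interval 0.41 to 0.50), 1.38 on day 1 (1.32 to 1.44) and 2.79 on day 2 (2.68 to 2.90). Δ95–99 went from -1.10 on day 0 through 0.46 to 1.40 on day 2. In +EMD the ratios were -2.16, -1.64 and -0.60. Within lines Cxcl12 was lower on the later day in 11 of 12 comparisons, and past 2-fold in wildtype and EMD-/y at both steps (-1.09 and -1.83, -1.07 and -1.43) and in S54F from day 1 to day 2 (-1.24). The exception was Δ95–99 from day 0 to day 1 (0.53).

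Both receptors of CXCL12 were expressed. Cxcr4 ranged from 167 to 897 over the groups and Ackr3, the scavenging receptor, from 119 to 1150. Ackr3 was 2-fold higher than wildtype in 6 of 15 line comparisons, S54F and Q133H on days 1 and 2 and Δ95–99 and +EMD on day 2, with the highest log2 ratio in Q133H on day 2 (2.24). Cxcr4 was lower in 3 of 15 and higher in 1, from -1.43 in Δ95–99 on day 1 to 1.14 in Q133H on day 2. Cxcl12 and both receptors were all at least 2-fold above wildtype in Q133H on day 2, as were 18.2% of all genes tested. On day 1 in the same line, Cxcr4 was 2-fold lower than wildtype (-1.04).

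Csf1 (GeneID 12977, chr3:107741048-107760469), the growth factor of macrophages, was the most abundant member per kilobase in every group. In wildtype it was at 30861 on day 0, 6609 on day 1 and 1885 on day 2. EMD-/y (21992, 5360 and 1944), S54F (11531, 4831 and 1650) and +EMD (13966, 4403 and 1565) came to similar levels by day 2. Δ95–99 was at 19467, 10866 and 4840, and Q133H at 27744, 20990 and 15994. All 12 day ratios were below 0, and 9 were 2-fold lower. The exceptions were Δ95–99 from day 0 to day 1 (-0.82) and Q133H at both steps (-0.43 and -0.30). Against wildtype, Q133H was at -0.20 on day 0, 1.55 on day 1 (interval 1.53 to 1.57) and 2.87 on day 2 (2.83 to 2.91), the latter from 14942 against 2047. Δ95–99 was at -0.71, 0.65 and 1.19. Csf1 was 2-fold lower on day 0 in S54F (-1.43) and +EMD (-1.16). Its receptor, Csf1r, was at 1.83 to 25.0 and reached 10 in 6 groups.

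Of 35 further cytokines and chemokines, 271 line values passed the minimum, and 33 were higher (12.2%, against 8.15% over all genes) and 67 lower (24.7%, against 8.36%). Cxcl14, a chemokine of epithelia and muscle, was lower in 12 of 15 line comparisons, down to -10.36 in Q133H on day 0. Cx3cl1, the membrane-bound chemokine fractalkine, was higher in 7 of 15 line comparisons, up to 2.87 in Q133H on day 2. Between days, 35 of 207 values were higher (16.9%, against 9.28% over all genes) and 49 lower (23.7%, against 8.63%), with the largest medians for Clcf1 (2-fold lower in 6 of 12) and Il11 (median -0.72), which share gp130 with Lif, and for Cx3cl1 (-0.66). Of 21 NF-kB genes and other factors that act on cytokine promoters, 13 of 315 line values were higher (4.13%) and 8 lower (2.54%), and between days 12 of 252 were higher (4.76%) and 13 lower (5.16%), all below the shares over all genes. Fosl1, a subunit of AP-1, had a median of 0.72 over the lines and reached 2.64 in Q133H on day 2, and between days it was lower in 7 of 12. The stress factor Atf3 had medians of 0.79 over the lines and 1.18 between days, Fos a median of -0.58 over the lines, and Nfkbiz a median of -0.86 between days.

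The genes whose log2 ratios ran most like those of a member were sought among 11379 genes that passed the minimum in all 27 comparisons. They are given as a description, since the comparisons share groups. Csf1 was most like Cers2 (Pearson r 0.97) and S100a6 (0.95), and Cxcl12 most like S100a6 (0.93) and Slc30a7 (0.92). Cxcl10 was most like Gbp3 (0.93) and Gbp7 (0.92), both of which are in the interferon gamma list. Lif was most like Dyrk3 and Mast4 (0.94 each), Ccl2 like C1ra and Arf4 (0.86 each), and Ccl7 like Nudt12 (0.75) and Cfap69 (0.74). Over 20 comparisons, Cxcl1 was most like Gask1b and Col1a2 (0.85 each) and Cxcl5 like Plcb1 (0.90) and Slc35d2 (0.89).

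Myogenic markers, of precursors and of differentiating muscle, were present in all groups, 9 or 10 of 10 at 10 or more. Their summed level ran from 40600 in Q133H on day 1 to 506000 in wildtype on day 2. Of 150 line values 21 were higher (14.0%, against 8.15% over all genes) and 30 lower (20.0%, against 8.36%). Myh3, a gene of differentiating muscle, ranged from 2160 to 262000. The precursor genes Myf5 and Pax7 ranged from 132 to 1550 and from 3.31 to 2190. Myf5 was higher in 9 of 15 line comparisons and lower in 0, Pax7 higher in 12 and lower in 3, and Myod1 higher in 0 and lower in 1. The other myogenic markers were higher in 0. Myh3 was lower in 9, Mymk in 5, Myog, Des and Chrna1 in 3 each, Cdh15 in 2 and Itga7 in 1. Of the 7 macrophage and leukocyte markers, 2 or 3 reached 10 in a group, and their sum ran from 91.6 in +EMD on day 0 to 353 in Q133H on day 2. The defining ones, Ptprc and Adgre1, were at no more than 1.90 and 0.369, while Cd14 (15.6 to 235), Itgam (1.73 to 248) and Cd68 (9.18 to 113) made up most of the sum. Endothelial markers summed to 17.1 in +EMD on day 0 and 51.9 in Q133H on day 1, with 0 to 2 of 4 at 10 or more. Fibroblast markers, 3 to 5 of 6 at 10 or more, summed to 1540 in Q133H on day 1 and 19600 in EMD-/y on day 1. Among them Lum was at no more than 0.497 and Col1a1 at 594 to 19100. Of 45 line values of macrophage and leukocyte markers, 6 were higher (13.3%) and 7 lower (15.6%). For endothelium these were 5 (29.4%) and 1 (5.88%) of 17, and for fibroblasts 14 (19.2%) and 22 (30.1%) of 73. On day 2, when 7 of 8 members tested in Δ95–99 and 6 of 8 in Q133H were 2-fold above wildtype, the summed myogenic markers were at 266000 and 114000 in these lines. Abundant genes of differentiating muscle, such as Myh3, weigh most in this sum. Myf5 and Pax7, at no more than 1550 and 2190, weigh little, so a lower sum does not show lower precursor genes. The median log2 ratio of the 10 myogenic markers to wildtype on day 2 was -0.39 in Δ95–99 and -1.42 in Q133H. The part of the lower sum in the members' ratios was not tested. Fewer cells that express a gene and less RNA per cell cannot be told apart in these bulk samples.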

How the data were processed

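RNA was sequenced from 54 samples in 18 groups (6 lines on 3 days). The authors' provider filtered reads with SOAPnuke, aligned them with HISAT2 to mm10 and compared groups with DESeq2. The study's methods describe the replicates of a line as partly technical. The deposited tables (27) hold 1 signal value per group and gene, a normalized count of unstated scaling, with the gene length. They also hold the authors' fold changes, p-values, q-values and up or down calls, which were not used. There are 0 columns of values per sample, so DESeq2 or any other test could not be run. No group value is exactly 0.

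Genes were named by NCBI number (99.84% to 99.89% matched in GRCm38.p6). Log2 ratios were computed within a table (Python 3.11.15, pandas 2.3.3), for genes with at least 10 in the higher group, and called at 2-fold. Counting intervals (95%, Clopper-Pearson, scipy 1.17.1) were tested on data simulated with counting error alone, the error they assume. That test checks the computation and does not cover normalization or the spread between replicates. The members and lists were chosen with earlier results of these data known. Named were all members, their receptors, the 3 genes of each list with the largest absolute median log2 ratio over line and over day comparisons, and the 2 genes most like each member tested in at least 20 comparisons. Alternatives were other minimums, thresholds, a pseudocount, 2 rescalings and calls on the whole interval.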

Additional observations from a re-analysis of the deposited data

How the results depend on the processing

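No paired analysis was possible because the tables hold 1 value per group, and for the same reason no replicate could be left out. Over the line comparisons, 23 lower values became 13 with a minimum of 50, 38 at 1.5-fold and 11 at 3-fold, and 27 higher values became 13 at 3-fold. Between days, 9 higher values became 14 at 1.5-fold, 3 at 3-fold and 5 where the whole counting interval had to pass 2-fold, and 30 lower values became 15 at 3-fold. These shifts follow from how strict each limit is. The 4 counts stayed within 1.5 times under no minimum, a pseudocount of 1, centring on the median ratio and rescaling to the same sum (lower on the later day, 35). Among 203 single ratios, those called at 2-fold could not change sign under these last 3, so their signs are no check. A pseudocount keeps the sign, and centring and rescaling shifted ratios by at most 0.02 and 0.27 (log2). Signs of smaller ratios were not counted. Rescaling moved 33 of the 203 past their counting interval, by at most 0.27 (log2). Ratios that can be reached through different tables (70) differed by a median of 0.022, and by at most 0.76, for Cxcl10. Low values limit Il6, Cxcl1 and Cxcl5 most, and no error between replicates is known for any value.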
